A study of Mus musculus with 6 samples.

Results

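Epicardium and related mesothelium were examined in single-cell RNA profiles of microdissected cardiogenic tissue from E10.5 mouse embryos. The epicardium is the mesothelial sheet that spreads from the proepicardial organ over the surface of the heart, and it later supplies fibroblasts and mural cells of the coronary vessels through epithelial-mesenchymal transition. Mesothelium of the same embryonic coelomic lining covers the body wall, lung buds, liver and gonadal ridge and shares with epicardium the transcription factor Wt1 and uroplakin genes such as Upk3b. The T-box factor Tbx18 is a marker of the proepicardium and epicardium at this stage, and it is also expressed in sinus venosus and other mesoderm.

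The embryos were wild type C57BL/6, from timed matings of normoglycaemic males. The females had been pretreated with vehicle and were normoglycaemic (3 samples), or had been pretreated with streptozotocin, which destroys pancreatic beta cells, and were hyperglycaemic (3 samples). RNA was counted as unique molecular identifiers (UMIs, 1 per captured molecule) in 6 droplet libraries, told apart by the suffix of the cell barcode and called libraries 1 to 6 here. No source used here pairs a suffix with a sample, so the treatments were not compared, no test between libraries was made, and values are given per library without a group. The sample titles and the kit are those of an RNA assay although the sample descriptions speak of chromatin, and the matrix was read as RNA.

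Members were chosen by measured UMI counts of 7 genes and by the quality of the barcode. A barcode was a member when it had at least 2500 detected genes and at most 10% mitochondrial UMIs, at least 2 UMIs of Wt1, at least 2 UMIs of 2 or more of Upk3b, Upk1b, Tbx18, Sema3d and Lrrn4, and fewer than 5 UMIs of the cardiomyocyte troponin gene Tnnt2. This rule found 977 cells among 53362 barcodes, or 2.72% of the 35962 barcodes within the quality limits (95% exact binomial interval 2.55 to 2.89, counting error only). Libraries 1 to 6 held 180, 164, 178, 125, 209 and 121 members. Members were then divided by Tbx18. The 714 cells with at least 2 Tbx18 UMIs are called epicardium-like, the 223 cells with none are called the Tbx18-negative mesothelium, and the 40 cells with exactly 1 were set apart.

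The 6 libraries held 7533 to 10000 barcodes and 200462921 to 248426458 UMIs, with a median of 30533 to 35634 UMIs per barcode within the quality limits. Epicardium-like cells had a median of 45131 UMIs and 7043 genes, against 40437 UMIs and 6847 genes in the Tbx18-negative mesothelium, with mitochondrial shares of 2.37% and 2.55%. Of the members, 139 carried a barcode sequence that also occurred in another library, 50 of them in library 4 and 44 in library 5. None of these sequences was a member in both libraries, and 11 of the 204 partner barcodes were within the quality limits.

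Epicardium-like cells were the larger group in each library under the rule as given, with the smallest share in library 4. They were 84.4%, 71.3%, 76.4%, 52.0%, 72.2% and 76.9% of members in libraries 1 to 6, and 73.1% in all (interval 70.2 to 75.8). The Tbx18-negative share was 13.3%, 24.4%, 18.5%, 44.8%, 22.5% and 19.0%. The interval of library 4 for the epicardium-like share was 42.9 to 61.0%, and its Tbx18-negative share was the largest. Without library 4 the epicardium-like share was 76.2% and the Tbx18-negative share 19.6%. The division moved with the Tnnt2 limit and with thinning. With Tnnt2 at 0 the shares were 50.4% and 42.9%, and after each cell was thinned to 10000 UMIs they were 86.1% and 4.43%. Thinning lowered Tnnt2 counts too, and 343 of the 661 epicardium-like cells found after it had been removed by the Tnnt2 limit at full depth. Without cells holding 2 cardiomyocyte markers the shares were 43.4% and 46.9%, or 112 and 121 cells, so that epicardium-like cells were no longer the larger group. The counts were close, and only 1 library then had 20 cells on both sides. Shares of captured cells depend on dissection and dissociation as well as on the embryo, and these were not tested.

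**Figure D1:**
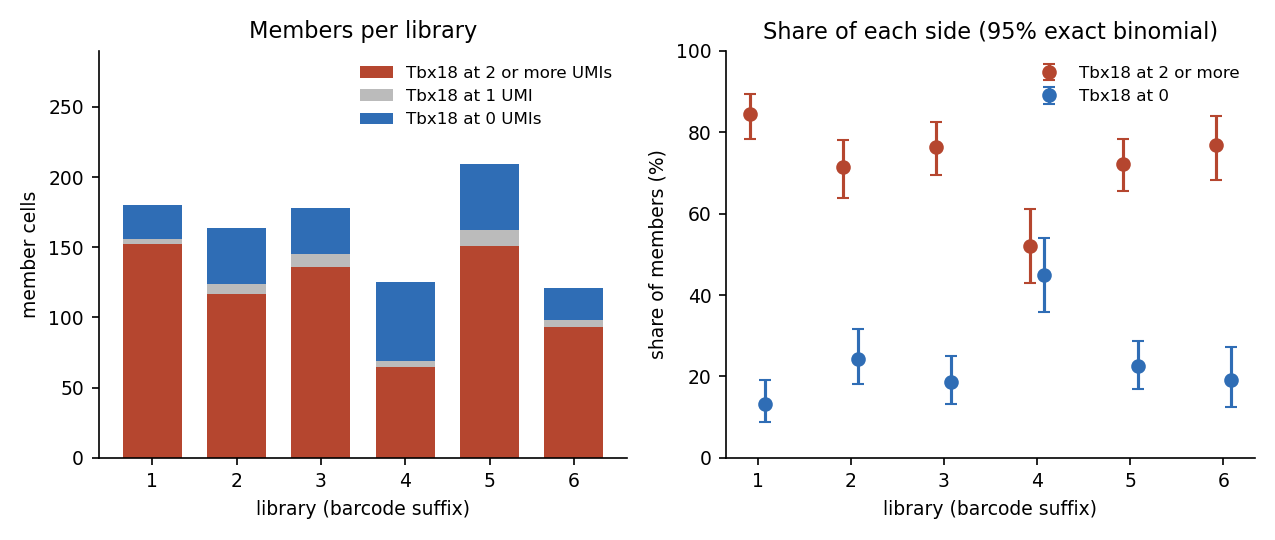
Left, member cells in each library (bars from 0), coloured by Tbx18 UMIs per cell. Right, the share of members on each side in percent, with 95% exact binomial intervals; library 4 has 52.0% with Tbx18 and 44.8% without, and the epicardium-like share is 71.3% or more in the other 5 libraries.

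The genes of the rule describe the members and support nothing about them. Among the epicardium-like cells 390 of 714 had all 5 second genes at 2 or more UMIs, whereas 115 of 223 Tbx18-negative cells entered through Upk3b with Lrrn4 and 36 through Upk3b with Sema3d. Upk3b, a uroplakin of the mesothelial surface, was at 2 or more UMIs in 94.7% and 98.7% of the cells on the respective sides. Upk1b, a tetraspanin uroplakin, was there in 69.3% and 22.9%, and Sema3d, a secreted guidance factor, in 74.6% and 31.8%. Lrrn4, a leucine-rich repeat membrane protein of mesothelium, was there in 69.5% and 74.0%. Wt1 was at 193 to 263 counts per 1000000 UMIs (CPM; median of libraries 220) in epicardium-like cells and at 77.1 to 126 CPM (median 100) in the Tbx18-negative mesothelium.

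Cells just inside and just outside the limits are described by their medians. The 149 members with exactly 2 Wt1 UMIs had a median of 6 Upk3b UMIs, and the 202 cells that met all else with 1 Wt1 UMI had 4.5. The 306 members with 2 second genes had a median of 3 Wt1 UMIs, as did the 418 cells with 1 second gene. Tbx18 itself was spread from 2 to 30 UMIs and beyond without a gap up to 30, with 63 members at 2 UMIs and 40 at 1.

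The Tnnt2 limit fell within the epicardium-like population. It removed 784 cells that met all else, of which 773 had at least 2 Tbx18 UMIs and 9 had none. That was 52.0% of the cells with at least 2 Tbx18 UMIs that met all else, 42.4 to 60.1% by library, and 3.88% of Tbx18-negative cells. The removed cells had a median of 10 Tnnt2 UMIs, against 158 in a cardiomyocyte gate (at least 20 Tnnt2 UMIs and no Wt1; 2711 cells). The 108 cells with exactly 5 Tnnt2 UMIs had medians of 13 Wt1 and 17 Tbx18 UMIs, and the 122 members with 4 had 11.5 and 15.

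**Figure D2:**
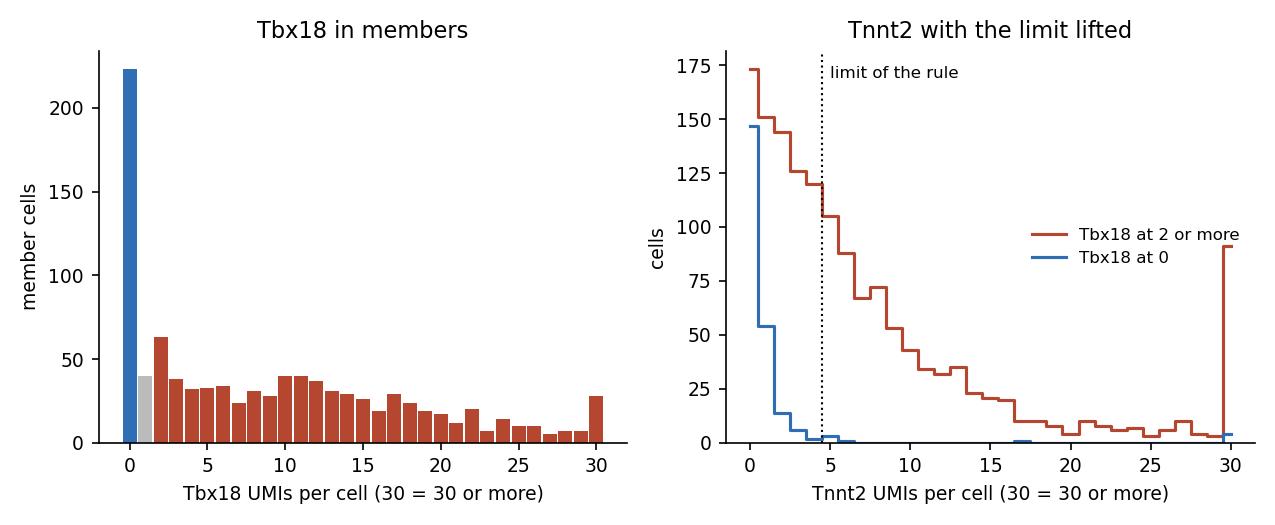
Left, Tbx18 UMIs per member cell (x axis, 30 stands for 30 or more; y axis, cells), with 223 cells at 0 and cells at every number from 1 to 30. Right, Tnnt2 UMIs per cell in cells that met all else of the rule, by Tbx18; the dotted line marks the limit, beyond which lie 773 cells with Tbx18 at 2 or more and 9 with Tbx18 at 0.

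Genes outside the rule were compared between both sides within each library. A gene was called when its median over the libraries reached 20 CPM on the higher side and it was at least 2-fold higher on that side in all 6 libraries. Of 6967 genes at that level, 118 (1.69%) were higher in epicardium-like cells and 46 (0.66%) were higher in the Tbx18-negative mesothelium. Log2 ratios were computed with 0.5 counts added to each sum, and their median over all tested genes was -0.05. The libraries are not known to be replicates of a condition, so these calls describe 6 libraries and carry no p-value.

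Promoters are printed for 4 genes described here, picked from 7 that held a match to a motif. Upk3b belongs to the rule and was at 2 or more UMIs in most cells of both sides, Itga4 and Tcf21 were higher with Tbx18, and Rgs5 was higher without it. Each is the 250 bases before the annotated start, 5′ to 3′ on the strand of the gene, from the RefSeq promoter table of build GRCm38.p6. Capitals mark a match to 1 of 4 motifs searched on both strands, which were GGTGTGA for T-box factors, AGATAA for zinc-finger factors of the GATA family, GGAATG for TEAD factors and GTGGGAG for WT1.
Upk3b (chr5:136038246-136038495, + strand): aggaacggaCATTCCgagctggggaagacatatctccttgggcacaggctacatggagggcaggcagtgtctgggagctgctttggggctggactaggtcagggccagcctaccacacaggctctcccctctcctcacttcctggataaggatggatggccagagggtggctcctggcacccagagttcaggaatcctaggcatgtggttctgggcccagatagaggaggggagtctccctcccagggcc
Itga4 (chr2:79255176-79255425, + strand): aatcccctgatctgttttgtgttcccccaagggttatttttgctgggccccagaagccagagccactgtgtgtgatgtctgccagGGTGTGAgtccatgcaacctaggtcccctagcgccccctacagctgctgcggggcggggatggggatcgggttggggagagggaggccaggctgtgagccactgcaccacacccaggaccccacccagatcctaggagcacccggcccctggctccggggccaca
Tcf21 (chr10:22820144-22820393, - strand): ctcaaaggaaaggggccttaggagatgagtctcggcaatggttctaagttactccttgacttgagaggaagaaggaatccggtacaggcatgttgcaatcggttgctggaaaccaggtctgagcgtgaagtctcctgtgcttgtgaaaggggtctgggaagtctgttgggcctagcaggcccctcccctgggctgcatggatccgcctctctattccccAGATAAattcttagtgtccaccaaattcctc
Rgs5 (chr1:169655251-169655500, + strand): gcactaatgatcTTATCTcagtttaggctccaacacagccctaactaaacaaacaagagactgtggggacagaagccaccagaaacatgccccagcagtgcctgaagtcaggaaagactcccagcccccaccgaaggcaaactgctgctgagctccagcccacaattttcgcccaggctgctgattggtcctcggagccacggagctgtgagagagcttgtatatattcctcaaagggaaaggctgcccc
The matches began 241 bases before the start in Upk3b (TEAD, reverse strand), 165 in Itga4 (T-box), 31 in Tcf21 (GATA) and 238 in Rgs5 (GATA, reverse strand). Promoters were found in the table for 90 of the 118 and 34 of the 46 called genes. Over windows of 300 bases the T-box letters were in 4 of the 90, 1 of the 34 and 3.96% of all 27025 promoters. Among the 5598 promoters of tested genes, from which the calls came, their share was 2.72%. The GATA letters were in 7 of the 90, 5 of the 34, 5.43% of the tested and 11.4% of all promoters. The TEAD letters were in 13 of the 90, 7 of the 34, 11.5% of the tested and 14.6% of all promoters, and the WT1 letters in 10 of the 90, 6 of the 34, 590 of the tested and 9.45% of all promoters. Of 17 promoters examined singly, 10 held no match. Those with a match that are not printed were Aldh1a1 (T-box and TEAD), Ano3 (TEAD and WT1) and Lrrn4 (TEAD). A match is a run of letters and not a measured binding site.

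Among known epicardial genes outside the rule, Itga4 had the widest separation. Itga4 (ENSMUSG00000027009) encodes the alpha-4 integrin chain that binds VCAM1 and attaches epicardium to myocardium. It was at 175 to 360 CPM (median 262) in epicardium-like cells and at 0.383 to 3.40 CPM (median 1.24) in the Tbx18-negative mesothelium. Tcf21, a bHLH factor of epicardium and its fibroblast progeny, was at 171 to 269 CPM (median 212) and at 26.2 to 83.9 CPM (median 35.5). Both ranges were far apart, with median log2 ratios of 7.12 for Itga4 and 2.50 for Tcf21. Bmp2, a BMP ligand, was the third epicardial gene called, at 19.4 to 32.8 CPM against 0 to 11.1 CPM.

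The same list of epicardial and proepicardial factors also held genes on the opposite side. Of its 25 genes 22 were tested, 3 were higher in epicardium-like cells and 2, Hand1 and Mab21l2, in the Tbx18-negative mesothelium. These were 13.6% and 9.09% of those tested, against 1.69% and 0.66% of all tested genes, and the median log2 ratio of the list was 0.16. Gata4, a zinc-finger factor needed for proepicardium formation, was at 120 to 200 CPM in epicardium-like cells and at 15.9 to 52.8 CPM without Tbx18 in every library but library 5, where it was 130 CPM. Aldh1a2 had medians of 122 and 48.0 CPM, and Gata6 of 145 and 165 CPM, with overlapping libraries. Tbx5 was lower in epicardium-like cells in all 6 libraries but not 2-fold lower in each, with medians of 24.8 against 64.7 CPM. Isl1 was at 8.65 to 14.7 CPM against 29.5 to 78.1 CPM and missed the call narrowly, since its log2 ratio with the added counts was -0.995 in library 4.

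Several leading genes of the epicardium-like cells are not on the marker lists for epicardium. Tubb3, a beta-tubulin best known from neurons, was at 110 to 237 CPM (median 158) with Tbx18 and at 0 to 6.86 CPM without it. The other 3 neuronal markers Elavl3, Stmn2 and Dcx added little, since the summed neuron markers had a median of 161 CPM. After every cell was thinned to 10000 UMIs, Tubb3 was detected in 46.1% of epicardium-like cells (interval 42.4 to 49.9), in 0.450% of Tbx18-negative cells and in 5.04% of cells of an endothelial gate. Before thinning the shares were 59.7%, 3.59% and 9.82%, at median depths of 45131, 40437 and 40591 UMIs.

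The gene with the largest ratio was 6030498E09Rik (ENSMUSG00000051361), at 78.3 to 137 CPM against 0 to 1.40 CPM. Its 3759 UMIs against 3 gave a pooled ratio of 363 (interval 124 to 1761). Intervals of pooled ratios cover counting error only and not the spread between cells or libraries. Synm, which encodes the intermediate filament protein synemin, had 1197 UMIs against 3, a pooled ratio of 116 (interval 39.5 to 561). Hpgd, the enzyme that inactivates prostaglandins, was at 44.2 to 96.9 CPM against 0 to 14.7 CPM. Enpp1, an ectonucleotidase, Tdo2, a tryptophan dioxygenase, and Actn3, an alpha-actinin, had medians of 24.3, 25.1 and 39.5 CPM against 0, 0.191 and 0.666 CPM. Ripor2, Tmem255a and Pkhd1l1 completed the leading group with medians of 51.1, 24.9 and 33.2 CPM, and the fitted log2 ratios of such genes depend on the added counts. All 9 had a median of 1.12 CPM or less in the Tbx18-negative cells.

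Erbb4, a receptor of neuregulins, was the most abundant of the 12 leading genes. It was at 652 to 833 CPM (median 735) in epicardium-like cells and at 4.68 to 60.7 CPM (median 28.5) in the Tbx18-negative mesothelium. Its median was 1184 CPM in the cardiomyocyte gate. Aldh1a1, a retinaldehyde dehydrogenase, was at 42.5 to 98.5 CPM (median 78.8) against 0 to 9.81 CPM (median 2.70), and at 0.308 to 0.696 CPM in the medians of the other gates. It was the retinoic acid gene called, 1 of 8 tested (12.5%, against 1.69% of all tested genes) from a list of 19 whose median log2 ratio was -0.49.

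**Figure D3:**
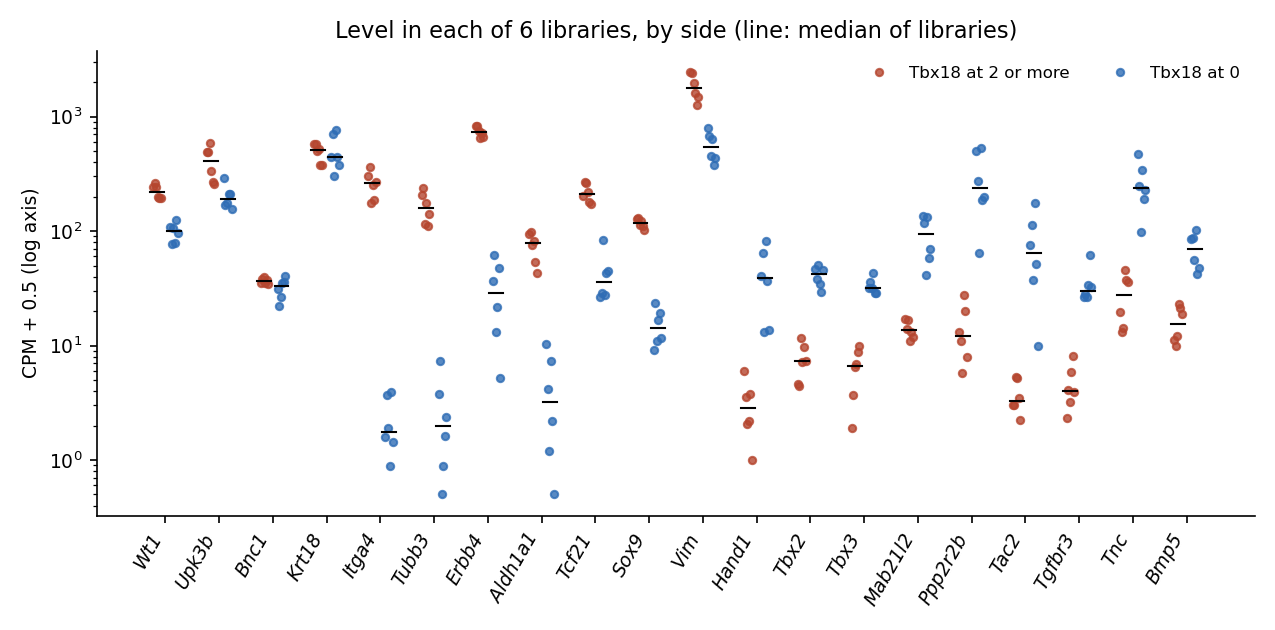
Level of 20 genes in each of the 6 libraries (points; y axis, CPM + 0.5 on a log scale) in cells with Tbx18 at 2 or more (red) and at 0 (blue), with the median of the libraries as a line. Wt1 and Upk3b belong to the rule; Bnc1 and Krt18 overlap between the sides, Itga4 to Vim are higher with Tbx18 and Hand1 to Bmp5 are higher without it.

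Cardiomyocyte RNA differed between the sides. The summed level of 9 cardiomyocyte markers other than Tnnt2 was 782 to 1331 CPM (median 1054) in epicardium-like cells and 198 to 443 CPM (median 264) in the Tbx18-negative mesothelium. It was 39037 CPM in the cardiomyocyte gate and 116 CPM in a lateral and foregut mesoderm gate (Foxf1 and Osr1 at 2 or more UMIs, Wt1 at 0, Tnnt2 under 5; 2407 cells). None of the 9 was at 0 on either side. At least 2 of these markers were at 2 or more UMIs in 84.3% of epicardium-like and 45.7% of Tbx18-negative cells.

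The markers did not stand in the ratio they had in cardiomyocytes. Myl7, the atrial myosin light chain, was at 480 to 934 CPM (median 709) with Tbx18 and at 12.6 to 183 CPM (median 38.7) without, against 11836 CPM in the cardiomyocyte gate. The myosin heavy chains Myh6 and Myh7 had medians of 1.18 and 1.37 CPM in epicardium-like cells and 1138 and 718 CPM in the gate, and Nppa had 0.415 against 637 CPM. Tnni1, the slow troponin I, was similar on both sides, with medians of 219 and 174 CPM. Of the 118 genes higher in epicardium-like cells, 12 were higher still in the cardiomyocyte gate, among them Erbb4, Myl7, Bmp2 and Spon1, and 89 had less than 0.5 of their epicardium-like level there. Of the 46 genes higher in the Tbx18-negative mesothelium, 12 were also higher in that gate, among them Armh4, Hand1, Nebl, Pdlim3 and Popdc2. Of the 118 genes, 78 and 110 were under 0.5 of their level in the endothelial and mesoderm gates, so the 89 is not particular to cardiomyocytes. Of the 46 genes, 27, 36 and 23 were so in the cardiomyocyte, endothelial and mesoderm gates. Such shares over all tested genes were not counted. With cells at 2 or more UMIs of 2 of the cardiomyocyte markers left out, an alternative chosen after the data were seen, 112 and 121 cells remained. In pooled counts 106 of the 118 genes then kept their direction and 61 were still at least 2-fold higher. Of the 46 genes, 46 kept theirs and 35 were at least 2-fold. With Tnnt2 at 0, 118 of 118 and 46 of 46 kept their direction and 87 and 38 were at least 2-fold. In both alternatives the cells were part of those in which the genes were called, so the kept direction is no independent check. Myl7, a called gene, was also among the markers by which cells were left out. Shares of all tested genes that kept their direction were not counted. With the rule applied after each cell was thinned to 10000 UMIs, 661 and 34 cells were set against each other, 27 of the 34 had 2 or more Tbx18 UMIs at full depth, 74 of the 118 and 26 of the 46 genes kept their direction, and 3 and 7 were at least 2-fold.

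Markers of other cell types were summed in the same way. The summed endothelial markers had medians of 64.9 and 31.3 CPM on the respective sides, against 2261 CPM in the endothelial gate (Cdh5 and Pecam1 at 2 or more UMIs, 2016 cells, of which 5 were members). At least 2 of these markers were at 2 or more UMIs in 141 of 714 epicardium-like and 8 of 223 Tbx18-negative cells. The sums overlapped between the sides, at 40.5 to 116 and 14.2 to 94.8 CPM. Before thinning, Cdh5, Pecam1 and Kdr had a UMI in 1.12, 3.22 and 4.90% of epicardium-like cells, against 2.69, 8.07 and 10.8%. Plvap and Emcn were at 4.34 and 2.10% against 5.38 and 2.69%. Npr3 and Nfatc1 went the other way, at 52.5 and 11.8% against 19.3 and 1.35%, and so did Tek, which was called. After thinning, Cdh5, Pecam1 and Kdr had a UMI in 0.564, 1.69 and 1.27% of epicardium-like cells, against 0.450, 2.70 and 4.95%. The order of Cdh5 thus reversed, with 4 and 1 cells. Of the 118 genes higher in epicardium-like cells, 24 were higher still in the endothelial gate, including Vim, Hapln1, Col4a2, Nrp1 and the endothelial marker Tek, and of the 46 genes 6 were. The share over all tested genes was not counted. The summed erythroid markers had medians of 83.5 and 95.2 CPM, with library 3 at 2631 CPM on the epicardium-like side. The second heart field and foregut mesoderm markers had medians of 123 and 299 CPM. The intermediate mesoderm and gonad markers, which include Gata4 and Lhx9, had medians of 256 and 58.6 CPM, and 393 of 714 and 24 of 223 cells held 2 of them at 2 or more UMIs. The gonad list also had medians of 272, 184 and 166 CPM in the mesoderm, cardiomyocyte and endothelial gates, and it includes Osr1, which defined the mesoderm gate. The second heart field list had 55.3 to 194 CPM in epicardium-like cells and 247 to 416 CPM without Tbx18, so its libraries did not overlap. The gonad list had 193 to 282 and 28.3 to 215 CPM, so its libraries overlapped, and none of the 5 and 3 genes tested on these lists was called. The summed endoderm markers had medians of 17.9 and 68.4 CPM, at 5.26 to 47.2 and 5.61 to 148 CPM, so their libraries overlapped. In 40.6% of epicardium-like and 30.9% of Tbx18-negative cells, at least 2 markers of 1 other type (endothelium, erythroid cells, crest, endoderm, liver, myeloid cells or neurons) were at 2 or more UMIs. Of 5 liver genes Afp, Alb and Fgb were at 0 on both sides, for which 3 counts would be 0.0897 and 0.310 CPM, and Apoa1 and Ttr had 5 and 3 UMIs in all epicardium-like cells and 1 and 5 in all Tbx18-negative cells. Their part in the calls was not tested.

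Of 20 mesothelial epithelial genes 12 were tested and 8 were below the level. Krt19 was called with Tbx18, which is 8.33% of those tested against 1.69% of all tested genes, and 11 were not called, which does not show that they were alike. The median log2 ratio of the list was 0.35. The keratins Krt8 and Krt18, which form filaments in simple epithelia, had medians of 268 and 510 CPM in epicardium-like cells and 246 and 445 CPM without Tbx18, and the libraries overlapped. Krt8 varied widely in the Tbx18-negative mesothelium, from 53.8 to 637 CPM. Bnc1, a zinc-finger factor of mesothelium, was at 34.2 to 39.1 CPM and at 21.6 to 40.2 CPM. Krt19 was at 107 to 269 CPM against 2.81 to 56.3 CPM. Msln, the marker of mature mesothelium, was close to 0 on both sides at this stage, with medians of 1.18 and 0.191 CPM. Outside the rule, the mesothelial label was not tested independently. After thinning, Bnc1, Krt8 and Krt18 had a UMI in 28.8, 68.8 and 89.3% of epicardium-like cells. The shares were 32.9, 63.1 and 92.8% in Tbx18-negative cells and 3.69, 17.4 and 31.7% in the mesoderm gate. Other genes of the list went the other way. Nkain4 had a UMI in 17.1 and 11.7% of cells on the respective sides and in 35.7% of the mesoderm gate. For Slc39a8 the shares were 5.50, 2.25 and 8.21%. The 3 summed epicardium and mesothelium markers outside the rule, Tcf21, Bnc1 and Msln, had medians of 248 CPM with Tbx18 and 70.4 CPM without it. Their median was 73.0 CPM in that gate. Most of the sum was Tcf21 in epicardium-like cells and in the gate, so the sums compare mainly that gene. The epicardial list gave no single answer on the epicardial label, since it had calls in both directions, and its member Tcf21 was also at 69.2 CPM in the mesoderm gate described above. The name epicardium-like therefore stands for the Tbx18 rule.

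Hand1 and Mab21l2 of the epicardial list and Tbx2 and Tbx3 of the list of coelomic and body wall factors were called higher in the Tbx18-negative mesothelium. Hand1, a bHLH factor of lateral mesoderm and pericardial coelom, was at 12.6 to 81.5 CPM (median 38.3) in the Tbx18-negative mesothelium and at 0.492 to 5.49 CPM (median 2.36) in epicardium-like cells. Mab21l2, a factor needed for the ventral body wall and the proepicardium, was at 41.2 to 136 CPM (median 93.7) against 10.4 to 16.5 CPM (median 13.1). Every library had the same order for both genes. The T-box repressors Tbx2 and Tbx3 were at 28.9 to 49.6 CPM against 3.90 to 11.2 CPM and at 28.1 to 42.5 CPM against 1.41 to 9.34 CPM. They were the 2 genes called of 9 tested on that list of 22, or 22.2% against 0.66% of all tested genes. The list's median log2 ratio was -1.20, and the other 7 were not called.

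Lhx9, a LIM factor of gonadal ridge and septum transversum mesothelium, was higher with Tbx18 in each library but was not called. It was at 42.1 to 72.9 CPM (median 54.1) in epicardium-like cells. Without Tbx18 it was at 1.53 to 5.59 CPM in 5 libraries and at 44.7 CPM in library 5, so the sides overlapped. Library 5 also had the highest Gata4 level on that side.

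UMIs of these factors were found in overlapping parts of the Tbx18-negative cells. Of 222 thinned to 10000 UMIs, 98 had a UMI of Mab21l2, 74 of Tbx3, 59 of Tbx2, 56 of Tcf21, 54 of Hand1 and 19 of Lhx9. Of the 54 cells with Hand1, 31 also had Mab21l2 and 24 had Tbx3. In the lateral and foregut mesoderm gate, after the same thinning, 44.8% of cells had a UMI of Tcf21, 21.1% of Tbx3, 17.5% of Tbx2, 6.70% of Hand1, 2.68% of Mab21l2 and 1.13% of Lhx9, so these factors were also found outside the members. In the endothelial gate 1.20% had a UMI of Mab21l2 and 0.150% of Lhx9. Of the 98 cells with Mab21l2 none had a UMI of Lhx9 and none of Osr1, which allows up to 3.06% of cells with such a UMI at this depth and does not limit the cells that express either gene. Lhx9 was found in 36.4% of thinned epicardium-like cells and in 63.3% before thinning. Of the 19 cells with Lhx9, 14 were from library 5, which held 13 of the 98, and of the 30 cells with Osr1, libraries 3, 4 and 5 held 11, 9 and 7. Of the 56 cells with Tcf21, 27 had Isl1, 21 had Foxf1 and 5 had Hand1. Among all 222 cells, 54 had Isl1 and 59 had Foxf1. These are counts of cells with a UMI at this depth and do not define separate cell types.

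Further leading genes without Tbx18 are given singly. Ppp2r2b, a phosphatase regulatory subunit, was at 63.6 to 530 CPM (median 236) against 5.25 to 27.1 CPM (median 11.6). Tac2, which encodes a tachykinin precursor, was at 9.35 to 176 CPM (median 63.4) against 1.72 to 4.82 CPM, with its lowest value in library 6. Its median log2 ratio of -4.47 moved to -2.21 without members holding 2 markers of another cell type. Only 4 libraries could then be compared in place of 6, so the cells and the libraries both changed. Rgs5, a regulator of G-protein signalling, was at 23.7 to 83.2 CPM against 1.97 to 7.69 CPM. Its GATA match is printed above beside the other promoters. Armh4 was at 34.8 to 138 CPM against 5.43 to 16.1 CPM, and its cardiomyocyte gate median was 210 CPM. Ano3, Col12a1, Ndnf and Smoc2 had medians of 32.3, 66.1, 61.0 and 51.7 CPM without Tbx18 and 1.65, 7.01, 5.30 and 9.93 CPM with it.

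Genes of epithelial-mesenchymal transition were called in both directions. Of 17 genes 12 were tested, and Vim and Sox9 were higher in epicardium-like cells and Tgfbr3 in the Tbx18-negative mesothelium. These were 16.7% and 8.33% of those tested, against 1.69% and 0.66% of all tested genes. Vim, the mesenchymal intermediate filament, was at 1262 to 2457 CPM against 376 to 796 CPM. Sox9, a transcription factor of cartilage and heart valve progenitors, was at 102 to 129 CPM against 8.72 to 23.2 CPM. Tgfbr3, the betaglycan co-receptor of TGF-beta, was at 1.83 to 7.56 CPM against 25.9 to 61.1 CPM and reached a median of 218 CPM in the endothelial gate. The repressor Snai1 was at medians of 9.22 and 14.5 CPM, under the level tested, and Twist1 had 96.8 and 244 CPM without being called. The list's median log2 ratio was -0.12.

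Matrix genes were also divided. Of 27 genes 20 were tested, 4 (20%) were higher with Tbx18 and 1 (5%) without, against 1.69% and 0.66% of all tested genes. The median log2 ratio was 0.32. Dcn, a small proteoglycan, was at 158 to 307 CPM against 16.9 to 57.3 CPM, and Hapln1, which links hyaluronan to proteoglycans, at 194 to 275 CPM against 26.0 to 67.8 CPM. Col4a2, a basement membrane collagen chain, and Spon1 had medians of 78.0 and 98.1 CPM against 23.8 and 18.4 CPM. Tnc, the matrix glycoprotein tenascin C, was at 97.1 to 470 CPM without Tbx18 and at 12.7 to 44.8 CPM with it. Fn1 was higher with Tbx18 in every library, with medians of 435 and 205 CPM, but not 2-fold in each.

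**Figure D4:**
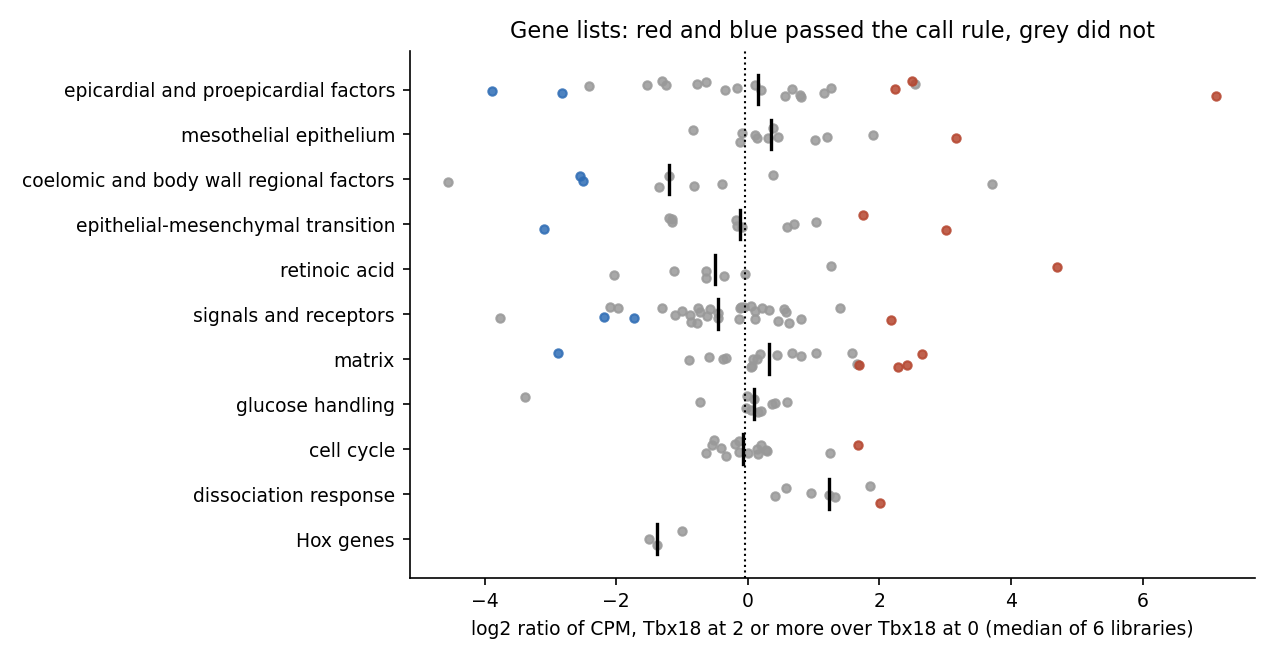
Log2 ratio of CPM between cells with Tbx18 at 2 or more and at 0 (x axis, median of 6 libraries) for the tested genes of 11 lists (rows). Red and blue points passed the call rule, black ticks are list medians and the dotted line is the median of all tested genes, -0.05; the coelomic and Hox lists have medians of -1.20 and -1.38, each without a gene called higher with Tbx18.

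Of 48 ligands, receptors and targets of signalling 33 were tested. The 1 gene called with Tbx18 was 3.03% of these, against 1.69% of all tested genes, and the 2 called without it were 6.06%, against 0.66%. Nrp1, a semaphorin and VEGF co-receptor, was at 187 to 265 CPM against 11.2 to 61.1 CPM. The ligands Bmp5 and Sema3a were higher without Tbx18, at 41.3 to 101 CPM against 9.50 to 22.7 CPM and at 143 to 470 CPM against 45.4 to 107 CPM. Wnt2 and Bmp4 were also higher there in every library but not 2-fold in each, with medians of 111 and 84.4 CPM against 25.9 and 29.6 CPM. Fgf9, an epicardial mitogen for myocardium, had medians of 21.1 and 11.8 CPM, and the libraries overlapped. The list's median log2 ratio was -0.45.

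Hox genes, glucose genes and cell cycle genes are read against all tested genes, of which 6803 of 6967 were not called. Of 39 Hox genes 3 were tested, Hoxb2, Hoxb3 and Hoxb4, and none was called, although each was higher in the Tbx18-negative mesothelium in all 6 libraries. Hoxb2 was at 92.3 to 133 CPM there and at 26.5 to 63.2 CPM in epicardium-like cells. None of 11 tested glucose genes was called, and their median log2 ratio was 0.10. The neuronal-type glucose transporter Slc2a3 was at 171, 214, 14.7, 345, 108 and 21.5 CPM in libraries 1 to 6 without Tbx18 and at 8.98 to 25.4 CPM with it, so that libraries 3 and 6 were low. Of 16 cell cycle genes Ccnd1, a G1 cyclin, was called (6.25% of the list, against 1.69% of all tested genes), at 316 to 599 CPM against 115 to 149 CPM, and the list's median was -0.07. Mki67 had medians of 116 and 164 CPM and was not called.

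Of 10 stress genes that respond to dissociation 7 were tested, 1 was called (14.3%, against 1.69% of all tested genes) and 6 were not. Their median log2 ratio was 1.24, the highest among the gene lists plotted. The gene called was Atf3, at 30.7 to 42.8 CPM against 4.68 to 13.1 CPM. Fos and Jun had medians of 142 and 331 CPM against 40.8 and 162 CPM, and neither was 2-fold higher in each library. The part of dissociation in the other calls was not tested.

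Against the lateral and foregut mesoderm gate, all 977 members were compared as a whole. Of 7171 genes 277 (3.86%) were higher in members and 90 (1.26%) were lower by the same call rule. Mesothelial epithelial genes were higher in 9 of 12 tested, and none was lower. A gene under the tested level in the gate, such as Cdh3, could be called higher in members but not lower. The members were chosen by Wt1, Upk3b and other genes of the rule, and the gate by the absence of Wt1 UMIs. The 9 of 12 is therefore no independent check on the mesothelial label. Krt18 had a median of 515 CPM in members and 78.2 CPM in the gate, and Cdh3, a cadherin, had 79.1 and 18.6 CPM. Podxl, an anti-adhesive sialomucin, was at 94.9 to 136 CPM and at 9.76 to 13.7 CPM, and Fbln2, a matrix fibulin, had 110 and 4.65 CPM. Of 33 tested signalling genes 2 were higher and 2 lower, namely the hedgehog receptor Ptch1, at 55.3 against 285 CPM, and the hedgehog-binding protein Hhip, at 6.97 against 94.6 CPM. Isl1 was at 23.2 against 94.3 CPM.

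**Figure D5:**
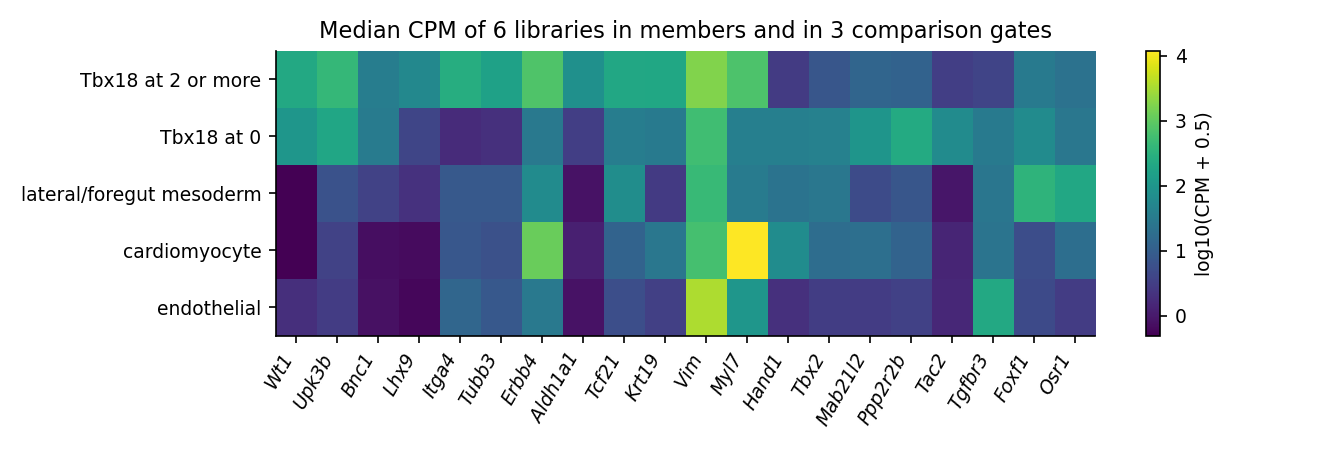
Median CPM of 6 libraries, as log10(CPM + 0.5), for 20 genes (columns) in both sides of the members and in 3 comparison gates (rows). Wt1 helped to define the members and, at 0, the mesoderm and cardiomyocyte gates, and Foxf1 and Osr1 the mesoderm gate; Erbb4 is high in epicardium-like cells and in cardiomyocytes, at 735 and 1184 CPM, and Itga4 in epicardium-like cells, at 262 CPM.

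Against all other barcodes within the quality limits, which the rule itself set apart, 197 of 7010 genes (2.81%) were higher in members, as a description. The 10 genes with the largest fold in their lowest library were 6030498E09Rik, Actn3, Bnc1, Gpr39, Lhx9, Prkcb, Rnf213, Rpp25, Sfrp5 and Wt1os. Wt1os, the antisense transcript beside Wt1, had a median of 56.6 CPM in members and 3.87 CPM elsewhere. Gpr39, a zinc-sensing receptor, had 66.8 and 4.93 CPM, and Prkcb, a protein kinase C, had 129 and 13.7 CPM. Sfrp5, a secreted Wnt antagonist, had 22.5 and 2.54 CPM and was at 15.6 to 28.3 CPM (median 19.5) with Tbx18 and at 3.49 to 36.0 CPM (median 23.0) without it, so that the libraries overlapped. After thinning, Gpr39 and Prkcb had a UMI in 47.2 and 62.5% of epicardium-like cells, against 14.4 and 31.5% of Tbx18-negative cells. Bnc1 and Sfrp5 were at 28.8 and 15.7% against 32.9 and 17.1%. The 10 genes are therefore not equally traits of both sides. The barcodes elsewhere include the 784 cells removed by the Tnnt2 limit.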

How the data were processed

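Whole-number UMI counts per gene and barcode were deposited by the authors as 1 matrix of 32285 genes. Per the submitters' processing notes they were made with Cell Ranger 5.0.0, and the notes name build mm10. The members and gene lists were chosen with earlier results of these data known. Tissue was dissociated with an enzyme and 3′ libraries were made with a 10x Chromium kit, per the labels' protocols. The 7 genes of the rule were left out of calls.

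Counts of the cells of a side were summed per library and divided by all UMIs of those cells (CPM). Each side needed 20 cells in a library. Named genes were those of the rule, the 12 leading calls on each side, the 10 genes highest over other barcodes, and members of the lists. No doublet caller was run, and barcodes above the 95th percentile of UMIs or with markers of another cell type were left out as alternatives. Intervals are 95% exact binomial (Clopper-Pearson), and 3 counts were the limit for a count of 0. Both cover counting error only. For shares of cells, cells were thinned to 10000 UMIs, which left out 5 epicardium-like and 1 Tbx18-negative cell. Strand of counting is not given in the sources used here, so Wt1 and Wt1os may share reads. Python 3.11.15, numpy 2.4.6, scipy 1.17.1 and pandas 2.3.3 were used. Promoters came from RefSeq.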

Additional observations from a re-analysis of the deposited data

How the results depend on the processing

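No paired analysis was possible because no source used here pairs the libraries with samples, which concerns the treatments. The sides were compared within each library. The direction of the 24 leading genes did not reverse in 15 alternatives in which at least 3 libraries could be compared, and 354 of 360 ratios moved by less than the spread of libraries. That spread was wide, and Hpgd, which moved from 6.15 to 4.28 with Tbx18 at 0 or 1 on the other side, counted among the 354. The 24 genes were picked for large ratios in every library, so leaving out a library could not reverse them. Pooled counts used the same cells, so the unchanged direction is no independent check. Calls were less stable. Of the 118 and 46 genes, 88 and 38 were still called with each gene of the rule at 1 UMI and 87 and 35 without shared barcode sequences. Without members holding 2 markers of another cell type 87 and 39 were still called, of 115 and 68 genes called. Only 4 libraries could be compared there, so a gene had to be 2-fold higher in 4 and not in 6. Leaving out each library in turn gave 112 to 169 genes higher with Tbx18 and 46 to 66 higher without, the 169 without library 5, and epicardium-like shares of 70.5 to 76.2% and Tbx18-negative shares of 19.6 to 25.0%.

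With each gene of the rule at 1 UMI there were 1628 members (4.53% of barcodes), 51.5% epicardium-like and 37.8% Tbx18-negative. At 3 UMIs members were 1.97% of barcodes, 86.0% and 11.8%. Without Tbx18 among the second genes they were 2.41%, 69.7% and 25.7%. With Tnnt2 at 0 there were 343 members (0.954%), 50.4% and 42.9%, and with no Tnnt2 limit 1761 (4.90%), 84.4% and 13.2%. Without members holding 2 markers of another cell type there were 608 (1.69%), 69.7% epicardium-like. Without those holding 2 cardiomyocyte markers, chosen after the data were seen, there were 258 (0.717%), 43.4% and 46.9%. Members were 2.27% of barcodes with looser quality limits and 2.53% without shared barcode sequences.

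Genes higher with and without Tbx18 numbered 310 and 207 in pooled counts, 64 and 26 at 50 CPM, 231 and 402 with no minimum level, 209 and 94 at a 1.5-fold difference and 188 and 99 when 1 library could fail. Without shared barcode sequences they numbered 89 and 39. Gene counts were not computed at 3 UMIs, with Tnnt2 at 0, after thinning or without cells holding 2 cardiomyocyte markers, where fewer than 3 libraries had 20 cells on both sides.

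Fewer Tbx18-negative than epicardium-like cells stayed members after thinning. Tbx18 is itself a second gene of the rule, so epicardium-like cells needed fewer others than Tbx18-negative cells. The unequal loss is thus partly set by the rule, and the part of depth alone was not tested. After thinning to 10000 UMIs members were 2.20% of barcodes, 86.1% epicardium-like and 4.43% Tbx18-negative, and 385 of the 768 had been removed by the Tnnt2 limit at full depth. Of the Tbx18-negative cells 2.25% stayed members, against 52.8% of epicardium-like cells, and 27 of the 34 cells then without Tbx18 had 2 or more UMIs of it at full depth.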
